A study of Mus musculus with 4 samples.

Results

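The synaptotagmin genes Syt1, Syt2, Syt3, Syt4, Syt5, Syt6, Syt7, Syt9, Syt10 and Syt11 were examined in mononuclear cells isolated by Percoll gradient from spinal cords of C57BL/6 mice. The mice had experimental autoimmune encephalomyelitis (EAE), in which immunization leads to inflammation and demyelination and which serves to model multiple sclerosis. The genes are 10 of the 32246 in the deposited table, taken by symbol, and all 10 were among the 27079 genes with enough signal to be tested. Syt6 was chosen by its difference in normalized level between the treatments, and the others were taken as members of its family. Both groups had EAE and were treated on alternate days from day 8 after immunization. The control group received a scramble micropeptide (Scr) and the other microPEP155 (P155), which the Mir155hg transcript encodes. Each group had 2 poly(A) RNA libraries, named Scr-4, Scr-5, P155-4 and P155-5 after the replicate numbers in the labels. The labels do not say whether a library came from 1 mouse or from a pool, so p-values measure only the spread between these libraries, which may be technical. The age of the mice is not given in the sources used here.

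Synaptotagmins are membrane proteins of vesicles and of the plasma membrane, with a short N-terminal segment, a transmembrane helix and a pair of C2 domains. In many family members the C2 domains bind calcium and phospholipid, and together with SNARE proteins they make vesicle fusion respond to calcium. In the nervous system, Syt1 and Syt2 are known as the fast calcium sensors of transmitter release. Other members serve slower release, release of peptides and hormones, or membrane traffic that does not depend on calcium.

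Neural RNA was abundant in preparations labelled as mononuclear cells. The 6 oligodendrocyte markers summed to between 680000 and 766000 normalized reads per library, and the 10 neuron markers to between 219000 and 354000. The 6 microglia markers summed to between 32000 and 61800, and the 10 identifiers of 9 leukocyte marker genes to between 7240 and 14800. The lists hold different genes, so these sums do not measure the share of each cell type. The libraries held between 30777600 and 64702900 reads (rounded), the fewest in P155-5, whose low counts are therefore the least precise. Levels are given as log2(normalized reads + 1), and differences are P155 minus Scr on that scale, which understates changes of genes with few reads.

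Syt6 was higher in both P155 libraries than in either Scr library. The Syt6 protein belongs to a branch of the family with Syt3, Syt9 and Syt10, and in sperm it is known for its part in acrosomal exocytosis. The gene (ENSMUSG00000027849) lies on chromosome 3 from 103575231 to 103645569 on the plus strand of mm10. Its level was 9.10 in Scr-4, 9.57 in Scr-5, 10.79 in P155-4 and 10.86 in P155-5. The groups did not overlap, and the gap between the groups was wider than the gap within either. The group means were 9.33 ± 0.34 in Scr and 10.82 ± 0.05 in P155 (SD, n = 2 each), a log2 difference of 1.49, or 2.81-fold. The reads behind these levels were 669 and 900 in the Scr libraries and 2098 and 1099 in the P155 libraries. Because Syt6 was picked for this difference, it is given as a description, with no p-value. The authors' deposited table holds it among 55 genes called higher in P155 at an FDR under 0.05, and 171 of all 32246 genes, 0.530%, were called in either direction there. That call comes from the contrast by which Syt6 was picked, so nothing is read from it.

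**Figure D1:**
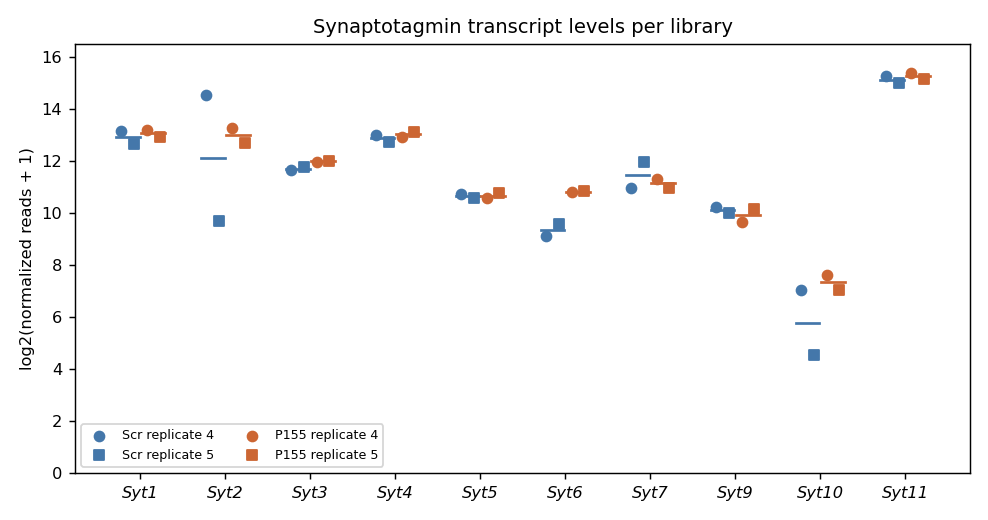
Levels of the 10 synaptotagmin genes, as log2(normalized reads + 1) on the vertical axis, with 1 point per library and a horizontal bar at each group mean (n = 2). Syt6 lies at 9.10 and 9.57 in Scr against 10.79 and 10.86 in P155, while Syt2 and Syt10 have a single low library, Scr-5.

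Next to Syt6, 2 other members, Syt3 and Syt10, had both P155 libraries above both Scr libraries, as did 15.2% of all genes tested, while 19.6% of all genes had both below. With 2 of 9 members, this is near the share of all genes. The sequences before their transcription starts are shown because these are the members that lay on the same side in every library. They are the 250 bases before the most upstream RefSeq start of each gene (GRCm38.p6, the assembly of mm10), 5′ to 3′ on the gene's strand, at chr3:103574995-103575244 (plus strand) for Syt6, chr7:44383876-44384125 (plus strand) for Syt3 and chr15:89841861-89842110 (minus strand) for Syt10. Capitals mark matches on either strand to the GC box GGGCGG, the E box CACGTG, the cyclic AMP response element TGACGTCA, the CCAAT box CCAAT and the TATA box TATAAA.
Syt6: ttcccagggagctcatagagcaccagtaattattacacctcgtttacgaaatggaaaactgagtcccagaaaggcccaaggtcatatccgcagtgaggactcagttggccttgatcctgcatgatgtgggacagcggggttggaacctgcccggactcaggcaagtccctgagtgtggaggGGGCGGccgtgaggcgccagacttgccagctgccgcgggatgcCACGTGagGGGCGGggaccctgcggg
Syt3: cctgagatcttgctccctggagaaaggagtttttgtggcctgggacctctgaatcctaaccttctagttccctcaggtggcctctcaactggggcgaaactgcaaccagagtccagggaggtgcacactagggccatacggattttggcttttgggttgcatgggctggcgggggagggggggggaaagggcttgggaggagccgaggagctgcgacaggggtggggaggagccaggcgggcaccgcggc
Syt10: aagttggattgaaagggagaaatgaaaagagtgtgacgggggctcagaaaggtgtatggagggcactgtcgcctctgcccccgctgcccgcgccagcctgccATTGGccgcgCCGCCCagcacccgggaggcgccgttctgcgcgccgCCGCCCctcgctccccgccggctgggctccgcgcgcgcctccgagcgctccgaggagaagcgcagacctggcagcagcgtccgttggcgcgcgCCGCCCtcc

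The Syt6 window held 2 GC boxes, starting 69 and 18 bases before the start, and 1 E box, starting 26 bases before it. The Syt10 window held 3 GC boxes and 1 CCAAT box, all on the other strand, and the Syt3 window held none of the 5 motifs. The matches did not overlap each other. Of 32851 windows of the same length in the RefSeq table, 32.7% held a GC box, 6.02% an E box, 33.8% a CCAAT box, 12.4% a TATA box and 1.55% the cyclic AMP response element. The GC content was 60.4% for Syt6, 62.4% for Syt3 and 72% for Syt10, beside a median of 52.4% over all windows. Members whose groups overlapped held GC boxes as well. Their most upstream windows had 3 for Syt9, 3 for Syt2, 2 for Syt11 and 1 for Syt1. The GC content of these windows was 80.4%, 76%, 51.2% and 56.4% in that order. GC boxes and a high GC content were therefore not particular to the members shown. Windows were at hand for 7 of the 10 members, and Syt6 had 3 of them, for 3 annotated starts. The table of read counts per gene does not separate these starts.

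By coding sequence, Syt10, Syt9 and Syt3 were the closest relatives of Syt6 among the members. Global alignment of the principal coding sequences in GENCODE M21 gave 68.4% identical bases between Syt6 and Syt10, 67.7% between Syt6 and Syt9 and 66.8% between Syt6 and Syt3, beside a median of 61.6% over the 45 pairs of members. The highest value of all pairs, 75.9%, belonged to Syt1 and Syt2. No stretch of 50 bases in the Syt6 transcripts occurred, on either strand, in a transcript of another member. Of their 50-base stretches, 7.59% occurred, on either strand, in transcripts of 2 other genes. Syt6 exons overlap a gene on the opposite strand, Atg4a-ps, described at the end of the Results.

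None of these relatives passed the test, and the groups of Syt9 overlapped. Syt3 encodes a calcium sensor with high affinity for calcium that is found mainly at the plasma membrane of neurons. Its level was 11.65 in Scr-4, 11.77 in Scr-5, 11.98 in P155-4 and 12.01 in P155-5. The groups did not overlap, but the difference was small, 0.29 (95% confidence interval -0.10 to 0.67, limma adjusted p = 0.861). Syt10 encodes a sensor known for the release of insulin-like growth factor 1 from neurons of the olfactory bulb. Its level was 7.05 in Scr-4, 4.52 in Scr-5, 7.62 in P155-4 and 7.05 in P155-5. Scr-4 and P155-5 were level to 2 decimals, so the groups barely separated, and Scr-5 alone was low. The Syt10 difference of 1.55 (interval -0.85 to 3.95, limma adjusted p = 0.861) became 0.29 without Scr-5 and 2.82 without Scr-4, and Syt10 had only 26 to 232 reads per library. Syt9, the other gene of that branch, stood at 10.24, 10.01, 9.66 and 10.16 in Scr-4, Scr-5, P155-4 and P155-5. Its groups overlapped, with a difference of -0.22 (interval -0.86 to 0.43, limma adjusted p = 0.878), which turned to 0.03 without P155-4. Each gene was then centred on its own mean. The root mean square difference from Syt6 over the 4 libraries was 0.616 for Syt3, 0.901 for Syt9 and 1.09 for Syt10 (log2 units). Among the other members it was 0.723 for Syt4, 0.733 for Syt11, 0.761 for Syt1 and 0.772 for Syt5. It was 0.930 for Syt7 and 1.92 for Syt2. Syt9 and Syt10 were thus less like Syt6 than several members outside its branch.

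The fast sensors of transmitter release were led by Syt1, which did not separate the groups, and by Syt2, which varied widely. Syt1 stood at 13.15 in Scr-4, 12.66 in Scr-5, 13.20 in P155-4 and 12.92 in P155-5. Its difference was 0.16 (interval -0.45 to 0.77, limma adjusted p = 0.908). Syt2 is the fast sensor of many brainstem and spinal cord synapses, including the neuromuscular junction. Its level was 14.53 in Scr-4, 9.70 in Scr-5, 13.28 in P155-4 and 12.68 in P155-5. The Scr libraries were the highest and the lowest of the 4 and differed by 4.84, or 28.5-fold, with 29071 reads in one and 984 in the other. The P155 libraries lay between them, 0.60 apart. The Syt2 difference of 0.86 had an interval of -3.37 to 5.10 (limma adjusted p = 0.931), and it was -1.55 without Scr-5 and 3.28 without Scr-4. Neuron markers were also lowest in Scr-5, but by far less, with a mean level of 13.88 there and 14.26 to 14.40 in the other libraries. The part of neural RNA content in the Syt2 difference was not tested, and in such bulk preparations fewer cells of a type and less RNA per cell cannot be told apart. Syt5, which encodes a relative of Syt1 and Syt2 found on secretory vesicles, stood at 10.73, 10.58, 10.59 and 10.75 in Scr-4, Scr-5, P155-4 and P155-5. Its range over the 4 libraries was the narrowest of the 10 members, with a difference of 0.01 (interval -0.44 to 0.46, limma adjusted p = 0.997).

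Syt7, a high-affinity sensor of slow and asynchronous release and of lysosome fusion with the plasma membrane, had its highest level in Scr-5. It stood at 10.95 in Scr-4, 11.95 in Scr-5, 11.29 in P155-4 and 10.98 in P155-5. The groups overlapped, and the difference of -0.31 (interval -1.30 to 0.67, limma adjusted p = 0.884) turned to 0.19 without Scr-5. Microglia and leukocyte markers were also highest in that library, with mean levels of 12.62 and 9.57 there beside 12.13 and 9.44 in Scr-4. They were lower in P155-4, at 11.84 and 8.86, than in Scr-4, while Syt7 was higher there. Their part in the Syt7 level was not tested.

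Syt4 and Syt11 encode members whose first C2 domain lacks an acidic residue needed for calcium binding, and they are known for dense-core vesicle traffic and endocytic traffic. Syt4 stood at 13.01 in Scr-4, 12.74 in Scr-5, 12.92 in P155-4 and 13.12 in P155-5. Its difference was 0.15 (interval -0.32 to 0.61, limma adjusted p = 0.883). Syt11 stood at 15.27, 14.98, 15.38 and 15.16 in the same order, a difference of 0.14 (interval -0.36 to 0.65, limma adjusted p = 0.894). Both had overlapping groups, with Scr-5 the lowest library. Without Scr-5 the difference was 0.01 for Syt4 and 0.0002 for Syt11.

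Of the 9 members other than Syt6, 0 passed limma's test at an adjusted p under 0.05, and 0 had an unadjusted p under 0.05. Over all 27079 genes 0 passed, 0.00%, and 1179 had an unadjusted p under 0.05. By limma-voom on the recovered reads 0 genes passed, with 1085 at the unadjusted threshold. In the authors' deposited table none of the 9 had an FDR under 0.05, and the smallest FDR among them was 0.710, for Syt3. The P155 mean was higher in 7 of the 9 and lower in 2, and over all genes tested it was higher in 46.6%. None of the 9 had groups that separated in the other direction, P155 below Scr, as 19.6% of all genes tested did. With only 9 members nothing is read from this. The median difference of the 9 was 0.15, beside -0.03 over all genes tested. When levels were taken relative to the 10 neuron markers, a scaling chosen after the data were seen, the number of higher members among all 10 was 4 in place of 8, and Syt1, Syt4, Syt5 and Syt11 changed sign. That scaling subtracts one value from every difference and placed the median of all genes at -0.27. The Syt6 difference was 1.26 on that scale and 1.25 to 1.73 with each library left out in turn.

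Levels can be compared between members only per length, here as normalized reads per kb of annotated exon. Syt11 was first in every library, with a median of 7296 and a range of 6220 to 8188, and it made up 46.3% to 53.9% of the summed level of the 10 members. Syt4 followed, with a median of 2053 and a range of 1755 to 2287. Next by median came Syt3 (1205), Syt2 (1080) and Syt1 (1013). Syt2 spanned 109 to 3106, a range that overlapped those of all members but Syt11 and Syt10, and in Scr-4 it lay above Syt4. Syt5 had a median of 680 and a range of 642 to 723, below Syt1 and above Syt7. Syt7 (median 302), Syt9 (273) and Syt6 (217) overlapped, and Syt10 was last in every library, with a median of 71.3 and a range that still overlapped that of Syt6.

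Syt6 stood low in that order in both groups, and its share was larger in both P155 libraries. Per kb it stood at 93.7 and 130 normalized reads in the Scr libraries and at 304 and 318 in the P155 libraries. Its share of the summed level per kb was 0.572% and 1.13% in the Scr libraries and 1.96% and 2.26% in the P155 libraries. Among the members it ranked 9 and 8 in the Scr libraries and 8 and 7 in the P155 libraries. Even at its highest, Syt6 stayed under the lowest level of Syt5, Syt1, Syt3, Syt4 and Syt11.

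**Figure D2:**
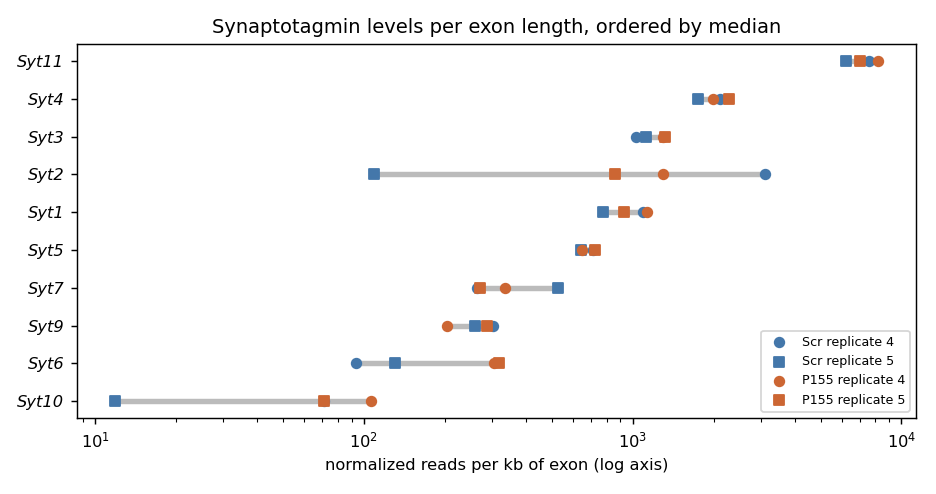
Normalized reads per kb of exon (horizontal log axis) for the 10 members, ordered by median, with 1 point per library and a grey line from the lowest to the highest. Syt11 spans 6220 to 8188, Syt2 spans 109 to 3106, and Syt6 has its Scr libraries at 93.7 and 130 and its P155 libraries at 304 and 318.

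The genes whose pattern over the libraries was most like that of Syt6 were Pde6d, Ncoa5, Ccdc115, Pigc and Tmem8b. After each gene was centred on its own mean, they had the smallest root mean square difference from Syt6 over the 4 libraries among 5517 named genes whose mean lay within 1 log2 unit of its own. Pde6d, which encodes a carrier of lipid-modified proteins, came closest at 0.229, with levels of 9.82 and 10.46 in Scr against 11.06 and 11.49 in P155. Ncoa5, a coactivator of nuclear receptors, followed at 0.276, with 10.01 and 10.06 in Scr against 11.05 and 11.08 in P155. Ccdc115 (0.279), Pigc (0.289) and Tmem8b (0.314) came next, and Pigc encodes a subunit of the enzyme that starts synthesis of glycosylphosphatidylinositol anchors. In each of the 5 genes both P155 libraries lay above both Scr libraries, which the choice by likeness fixes. The differences ran from 0.94 for Tmem8b to 1.13 for Pde6d and Ccdc115, beside 1.49 for Syt6. Likeness over only 4 libraries rests on few points and is given as a description.

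**Figure D3:**
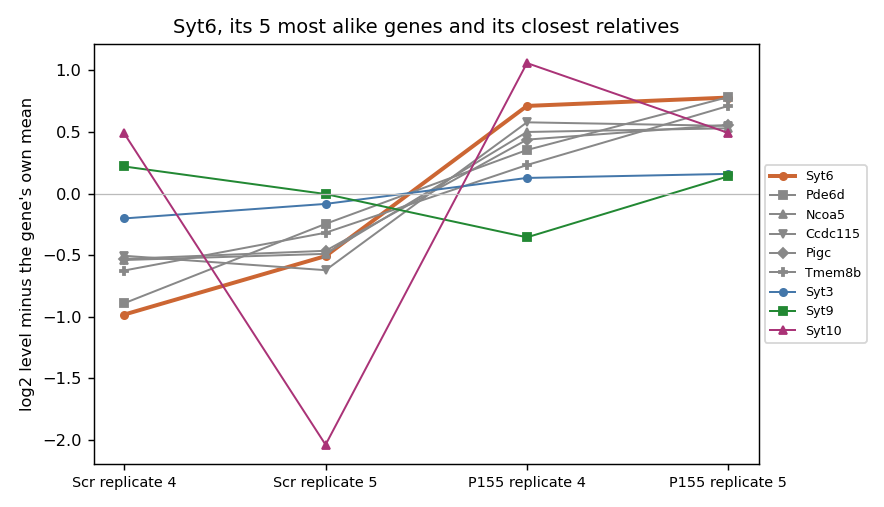
Log2 level of each gene minus its own mean over the 4 libraries, for Syt6, the 5 genes most like it (grey) and its relatives Syt3, Syt9 and Syt10. Lines only join the points of a gene. Syt6 and the grey genes lie below 0 in both Scr libraries and above 0 in both P155 libraries, while Syt9 lies lowest in P155-4.

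Of the 7 other synaptotagmins in the table, 5 were higher in P155 and 2 lower, with a median of 0.20 and 0 past limma's threshold. The median was 0.05 without Scr-5 and 0.05 without P155-4. Both P155 libraries lay above both Scr libraries in 1 of the 7, Syt17, and below them in 2, Syt8 and Syt15. Over all genes tested these shares were 15.2% and 19.6%. Syt12, a member that does not bind calcium, had the largest positive difference of the 7, but its groups overlapped, at 10.52 and 9.94 in Scr against 10.78 and 10.48 in P155, a difference of 0.40 (limma adjusted p = 0.861). Syt17 stood at 7.69 and 7.67 in Scr against 7.85 and 7.99 in P155. Syt15 stood at 7.32 and 7.01 in Scr against 6.97 and 6.53 in P155. Syt8 was near the detection limit, at 4.36 and 6.01 in Scr and 3.86 in P155-4, and was listed at 0 in P155-5.

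Of 12 synaptotagmin-like and other double C2 genes, 7 were higher and 5 lower in P155, with a median of 0.09. Doc2a, which encodes a calcium sensor of spontaneous and asynchronous release, stood at 9.24 and 8.76 in Scr against 9.69 and 9.57 in P155 (difference 0.63, limma adjusted p = 0.861). Its relative Doc2b stood at 9.05 and 8.60 in Scr against 9.37 and 9.17 in P155. Sytl3, a Rab27 effector of secretion in leukocytes and other cells, was lower, at 7.29 and 7.09 in Scr against 6.20 and 5.99 in P155 (difference -1.09, limma adjusted p = 0.861). Leukocyte markers were lower in P155 as well, at 10 of 10 identifiers with a median of -1.02, which was -0.60 without P155-5 and -1.32 without Scr-4. Their summed level ran from 12100 to 14800 in Scr and from 7240 to 10600 in P155. Among them, 1 of the 2 Itgam identifiers was listed at 0 in P155-5. Their part in the Sytl3 level was not tested. Sytl1 was listed at 0 in P155-5, after 4.96 and 6.31 in Scr and 5.49 in P155-4.

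SNARE genes, with whose proteins synaptotagmins act, were split in direction. Of the 11 tested, 4 were higher and 7 lower, with a median of -0.10, which was -0.01 without Scr-5 and -0.33 with neuron marker scaling. Vamp1, the vesicle SNARE of spinal cord synapses, stood at 15.82 and 15.51 in Scr against 16.14 and 15.82 in P155. Vamp8, a vesicle SNARE of secretory and immune cells, was the lowest, with 11.05 and 11.91 in Scr against 10.86 and 10.65 in P155 (difference -0.73, limma adjusted p = 0.861), and Stx3 followed at -0.20.

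Among 12 SNARE regulators and active zone genes, 10 were higher and 2 lower, with a median of 0.39. Rims1, an active zone scaffold that primes vesicles, stood at 11.28 and 10.66 in Scr against 11.87 and 11.71 in P155 (difference 0.82, limma adjusted p = 0.861). Its relative Rims2 had a difference of 0.63 with overlapping groups. Cplx3, a complexin best known from retinal synapses, was near the detection limit, at 3.54 and 2.60 in Scr. It was listed at 0 in both P155 libraries. All 9 vesicle proteins were higher, with a median of 0.17, from 0.04 for the small GTPase gene Rab3a to 0.70 for the synapsin gene Syn3. Neuron markers had a median of 0.27, with 8 of 10 higher, and their summed level ran from 219000 to 327000 in Scr and from 308000 to 354000 in P155. Their part in the synaptic lists was not tested. Without Scr-5 the medians were 0.09 for the regulators, 0.09 for vesicle proteins and 0.05 for neuron markers. Neuron marker scaling subtracts the same 0.23 from every gene, so the order of the lists and of all genes is kept. On that scale the medians were -0.03 for the other synaptotagmins, -0.14 for the double C2 genes, -0.06 for the vesicle proteins and 0.16 for the regulators, beside -0.27 for all genes. The double C2 median was -0.003 without Scr-5. None of the genes in these lists passed limma's threshold, and the authors' deposited table called none of the genes in the secretory lists. Among the cell type lists it called 2 of the 10 leukocyte identifiers, both lower in P155, and none in the others. Over all genes it called 0.530%.

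**Figure D4:**
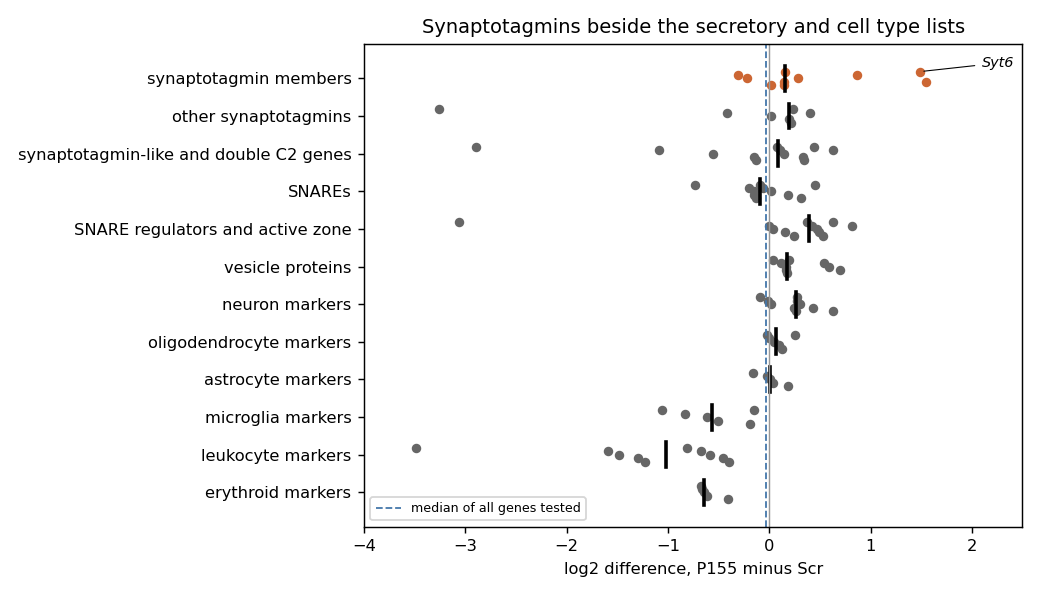
Log2 difference, P155 minus Scr, of each gene (points) and the median of each list (black bar), with the median of all genes tested as a dashed line. The Syt6 difference is 1.49, the list medians of the secretory genes run from -0.10 to 0.39, and the microglia, leukocyte and erythroid medians lie below 0, though the erythroid median of -0.64 was 0.13 without P155-4 and -1.39 without P155-5.

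A small stretch of Syt6 overlaps another annotated gene. Its exons overlap Atg4a-ps, on the minus strand at 103643954 to 103646068 of chromosome 3, over 505 bases, or 8.67% of its exon bases. Whether the authors' counting used strand is not given in the sources used here, so reads in that stretch cannot be assigned with certainty. Atg4a-ps stood at 6.22, 7.05, 5.87 and 6.27 in Scr-4, Scr-5, P155-4 and P155-5. The part of the shared stretch in the Syt6 level was not tested. Syt4 shares 566 exon bases with the antisense gene Gm26658, which stood between 4.41 and 5.19, and Syt7 shares 384 with Gm26859.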

How the data were processed

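The deposited table holds, per the file headers and the submitters' processing notes, log2 values per gene and library that the authors made with bcl2fastq, STAR 2.5.3a and DESeq2 on mm10, with the authors' log2 fold change, p-value and FDR. The sources used here do not name the read counter, the annotation, the use of strand, the filters or the test behind the deposited p-values. Undoing the log2 and the added 1 gave whole multiples of 1 step per library for 100% of values within a tolerance of 1e-06, so reads per gene could be recovered. The size factors were 1.23, 1.19 and 1.19, and 0.592 in P155-5.

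The 27079 genes that reached a normalized value of 1 in 2 or more of the 4 libraries were tested on log2(value + 1) by limma 3.58.1 (R 4.3.3) with a trended prior. P-values are two-sided and adjusted by Benjamini-Hochberg over these genes, and 0.05 was the threshold. An exact permutation test of 2 against 2 libraries cannot go below p = 0.333.

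Exon lengths, positions, overlaps and coding sequences are from GENCODE M21, which matched 32168 of 32246 identifiers and all 10 members. Promoter sequences are from RefSeq (GRCm38.p6). Genes named from the lists are the highest and lowest 2 of the secretory lists. A gene that this rule names is not reported here. Markers are given as lists. Genes like Syt6 leave out predicted genes, clones and pseudogenes. The members, lists and rules were chosen with earlier results of these data known. Alternatives were a replicate block, each library left out, scaling by total reads, no filter, a pseudocount of 0.1, a stricter filter (1 CPM or more in 2 libraries, with a mean of 50 reads or more), a robust prior, limma-voom with TMM scaling and a threshold of 0.1. Scaling by neuron markers was chosen after seeing the data.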

Additional observations from a re-analysis of the deposited data

How the results depend on the processing

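The number of genes past limma's threshold was 0, and so was the number of members other than Syt6, under each of the 13 alternatives run. With the replicate block, with the replicate number as a term, 0 genes were called, as without it. Same-numbered libraries had a correlation of deviations of 0.0706 across genes, and with only 2 pairs the numbers are not shown to pair the libraries. The number of members higher in P155 was 8. It was 6 to 9 with 1 library left out and 4 with neuron marker scaling, where the median of all genes was -0.27. The number of members whose groups did not overlap was 3, with the picked Syt6 among them. Over all genes tested, 15.2% had both P155 libraries above both Scr libraries and 19.6% had both below. The number of members became 5 to 9 with 1 library left out, where a lone library is easier to separate by construction. The share over all genes was not computed there, so nothing is read from that rise. The count of members without overlap was not computed under the block. The Syt6 difference, by which Syt6 was picked, ran from 1.25 to 1.73 over 12 alternatives. With neuron marker scaling the differences of Syt1, Syt4, Syt5 and Syt11 were -0.0765, -0.0857, -0.219 and -0.0903. With 1 library left out, differences ran from -0.0924 to 0.405 for Syt1, -1.55 to 3.28 for Syt2, 0.0125 to 0.282 for Syt4, -0.0674 to 0.0951 for Syt5, -0.81 to 0.19 for Syt7, -0.464 to 0.0321 for Syt9, 0.287 to 2.82 for Syt10 and 0.0002 to 0.285 for Syt11. Neuron marker scaling subtracts 0.23 from every difference, more than the main difference of Syt1, Syt4, Syt5 or Syt11. Their change of sign on that scale follows from this. The sign changed for Syt1, Syt2, Syt5, Syt7 and Syt9 with 1 library left out, a change whose cause was not tested. Syt3 and Syt10 stayed positive in all 12 alternatives, but most of these could not turn the sign. Their groups did not overlap, which keeps each difference positive with any 1 library left out. The block, no filter, the stricter filter and the robust prior leave each difference as it was. The same holds for Syt6. Syt10 had the fewest reads of the members, 26 to 232 per library.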
